A study of Drosophila melanogaster with 18 samples.

Results

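Brahma (Brm) is the ATPase that drives the SWI/SNF chromatin remodelling complexes of the fly, and its loss was studied here in the RNA of cultured Drosophila ovarian somatic cells (OSCs). The library labelled siBrm came from OSCs with brm knocked down for 2 days. It was set against the library labelled siEGFP, from OSCs in which RNA against EGFP served as the control for the same 2 days. These are 2 of the 18 samples of the series. Both libraries were made from total RNA of the same cultured line, which stands for the follicle cell lineage of the ovary and holds no germline. The series further holds RNA libraries of piwi and mael knockdowns from the same cells, and ChIP-seq of Brm, Polybromo and Osa in OSCs and ovaries. Each RNA group held 1 library, so the differences below were not checked in replicates and carry neither a p-value nor a standard error.

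SWI/SNF complexes slide and evict nucleosomes and thereby open promoters and enhancers. In flies they occur as BAP, marked by Osa, and as PBAP, marked by Polybromo and Bap170, and both contain Brm. In OSCs the Piwi pathway holds down retrotransposons at the level of transcription, and many of the elements it silences belong to the gypsy superfamily of LTR retrotransposons. The comparison here gives the RNA level of these elements after brm knockdown, which is not a direct measure of their transcription.

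The unit is RPKM, reads scaled by the authors to the length of the feature and the size of the library, in 35502 rows. Of these, 35329 rows are RefSeq transcripts and 173 are transposon families. Rows entered the comparison at a mean of at least 5 RPKM over the pair of libraries. This left 6719 rows, of which 6688 were transcripts of 4079 genes and 31 were transposons. A log2 ratio here is that of RPKM + 1 in siBrm over siEGFP, minus the median of all compared rows, which lay at -0.33 on the values as given (a fold of 0.795). A row is called higher or lower when it lies at least 2-fold from that median. The transcript rows just inside the floor belong to CG14621 (3.83 RPKM in siBrm and 6.17 in siEGFP) and CG4565 (3.32 in siBrm and 6.68 in siEGFP). Just outside it lay rows of Hr39 (3.45 in siBrm and 6.55 in siEGFP) and CG9641 (4.93 in siBrm and 5.07 in siEGFP).

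Counting intervals (95%) come from recovered whole reads, with 2 reads taken as 1 fragment. This pairing was assumed. Counts were even in 69.0% of rows with reads in siBrm and 62.2% in siEGFP, so not every row fits it. The intervals are relative to the same median, have no pseudocount and cover counting error only. For weakly expressed features they can therefore lie beyond the log2 ratio itself. The siBrm library held 4865534 reads and the siEGFP library 8983374, while the siPiwi and siMael libraries held 8965485 and 9498401. Transposon rows took 19.9% of the reads in siBrm and 11.96% in siEGFP, of which the element copia alone took 18.1% and 7.96%. Markers of ovarian somatic cells were present in both libraries, with a sum over tj, fs(1)Yb, zfh1, Fas3 and piwi of 87.0 RPKM in siBrm and 197 RPKM in siEGFP. The traffic jam gene tj had 55.6 RPKM in siBrm and 93.3 in siEGFP, and Fas3 had 3.25 in siBrm and 8.996 in siEGFP. Germline markers summed to 1.20 RPKM in siBrm and 1.59 in siEGFP over 5 genes, with osk at 0 in both. In similarly short sets, markers of haemocytes (1.87 in siBrm and 5.16 in siEGFP), muscle (1.92 and 1.48 in the same order) and neurons (1.61 and 1.43) were low. Those of fat body were at 0 in both libraries, and those of glia at 0 in siBrm and 0.223 in siEGFP. Longer marker lists held more RNA. The sum over 17 muscle genes was 72.2 RPKM in siBrm and 254 in siEGFP, most of it from Act57B (65.3 and 247). Over 22 germline genes it was 107 in siBrm and 188 in siEGFP, and over 8 glia genes 34.2 and 44.9. In bulk RNA, fewer cells that express a gene and less RNA of it per cell cannot be told apart.

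The knockdown was visible in brm itself (3L, 15970082 to 15982869), whose 6 rows summed to 0.54 RPKM in siBrm, 6.19 in siPiwi, 7.40 in siMael and 6.66 in siEGFP. These sums rest on 14 reads in siBrm and 321 in siEGFP, so that 8.10% of the control level was left. The log2 ratio was -1.98 (interval -4.64 to -2.22). At a mean of 3.60 RPKM the gene lay under the floor and counts among no calls. The other targeted genes of the series are part of the piRNA machinery. The gene piwi, the nuclear Argonaute, had 21.3 RPKM in siBrm and 81.5 in siEGFP, a ratio of -1.55 for the sum of its rows. The gene mael had 15.8 RPKM in siBrm and 14.5 in siEGFP, a ratio of 0.45. Thus piwi RNA was lower in the brm knockdown, and the part of this in the transposon values was not tested.

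Among transcript rows, 217 were higher (3.24%) and 261 lower (3.9%) in siBrm. Taking each gene by its leading row, the one with the highest mean, 155 genes were higher (3.8%) and 154 lower (3.78%). Without the shift to the median, 100 transcript rows were higher (1.5%) and 683 lower (10.2%), so higher rows made up 45.4% of calls relative to the median and 12.8% on the values as given. Summing all rows of a gene left 5057 genes to compare, of which 196 were higher (3.88%) and 206 lower (4.07%). The quartiles of the leading rows lay at -0.32 and 0.35, and their 5th and 95th percentiles at -0.91 and 0.90. Of the 155 higher genes, 51 had an interval wholly past 2-fold, as had 41 of the 154 lower genes. Many calls involve a weakly expressed side: 91 of the 217 higher rows had under 5 RPKM in siEGFP and 157 of the 261 lower rows had under 5 RPKM in siBrm. Protein-coding genes were higher in 3.25% and lower in 3.53% of cases. By chromosome, between 2.63% (3L) and 5.56% (chromosome 4, 18 genes) of genes were higher, and between 0% (chromosome 4) and 4.48% (2R) lower.

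**Figure D1:**
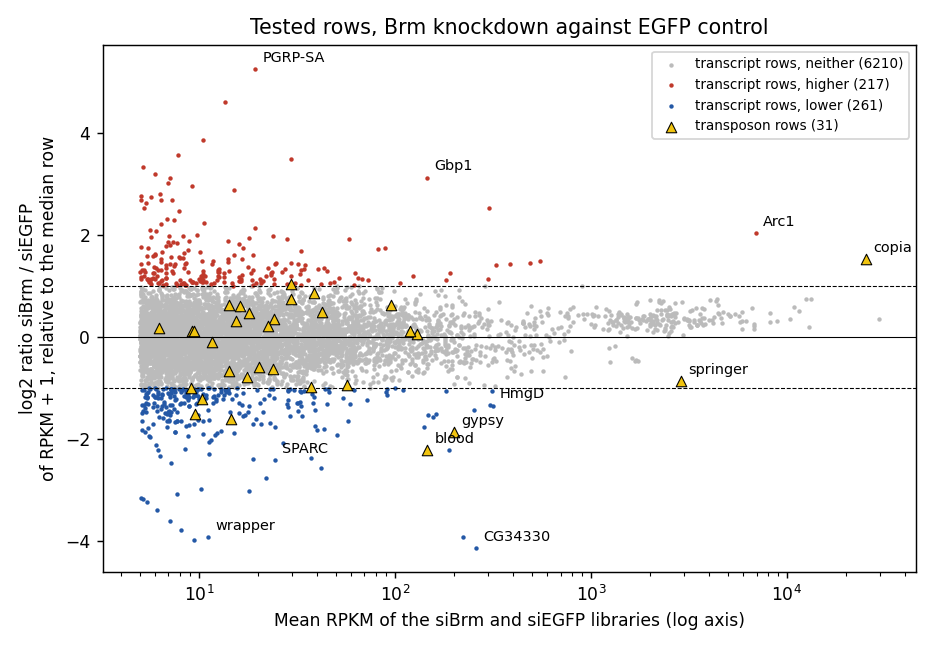
Each compared row by its mean RPKM over the siBrm and siEGFP libraries (horizontal, log axis) and its log2 ratio of siBrm over siEGFP relative to the median row (vertical), with red and blue points for the 217 higher and 261 lower transcript rows and triangles for the 31 transposon rows. The dashed lines mark 2-fold. Most calls lie at low RPKM, while Arc1 and copia stand above the line at the high end and gypsy, blood and CG34330 below it.

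The largest increase was in PGRP-SA (X, 11561643 to 11562779), the peptidoglycan receptor that feeds bacterial recognition into the Toll pathway. Its leading row had 38.5 RPKM in siBrm, 0.614 in siPiwi, 0.580 in siMael and 0.307 in siEGFP, so that the siBrm library alone was high. The log2 ratio was 5.25 (interval 4.78 to 12.6), from 136 reads in siBrm and 2 in siEGFP. The gene vir-1 (2L, 12403270 to 12423439), named for its induction by virus infection, had 14.9 RPKM in siBrm and 0.701 in siEGFP on its leading row, a ratio of 3.55. Summed over its 7 rows, vir-1 had 52.3 RPKM in siBrm and 8.63 in siEGFP, a ratio of 2.81. Gbp1 (2R, 17136451 to 17136903), which encodes a growth-blocking peptide, a secreted cytokine, had 255 RPKM in siBrm and between 21.8 and 36.1 RPKM in the other 3 RNA libraries. Its ratio to siEGFP was 3.12 (interval 2.78 to 3.54), the best supported by reads among the 10 highest genes, with 563 reads in siBrm and 147 in siEGFP. SmydA-1, a SET and MYND domain protein gene, had 16.7 RPKM in siBrm and 1.88 in siEGFP (2.95).

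The rest of the 10 highest genes carry no established role that can be given here. CG34445 had 20.3 RPKM in siBrm and 0.845 in siEGFP (3.86), and CG14984 had 12.8 in siBrm and 1.15 in siEGFP (3.01). CG30269 had 54.1 RPKM in siBrm and 5.21 in siEGFP (3.48), and CG12880 had 13.1 in siBrm and 1.06 in siEGFP (3.11). The counts behind lncRNA:CR43918 (14 reads in siBrm and 1 in siEGFP, interval 1.35 to 15.2) and CG12853 (18 and 2 reads in the same order, interval 1.53 to 9.84) were few. CG30269, lncRNA:CR43918, CG12853 and CG12880 each overlap another annotated gene, and reads of overlapping genes may not be told apart.

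The lowest gene was CG34330 (X, 19068275 to 19068973), with 21.6 RPKM in siBrm and 465, 487 and 499 RPKM in siPiwi, siMael and siEGFP. Its ratio was -4.14 (interval -4.75 to -3.70), and the 3 other RNA libraries lay close together. The cell surface gene wrapper (2R, 22379637 to 22382675), which encodes an immunoglobulin-domain protein known from midline glia, had 0.208 RPKM in siBrm, 7.11 in siPiwi, 12.4 in siMael and 22.0 in siEGFP, a ratio of -3.92. The basement membrane glycoprotein gene SPARC (3R, 26869238 to 26871995) had 5.57 RPKM in siBrm and 43.2 in siEGFP, a ratio of -2.42 (interval -3.47 to -1.88). Of the basement membrane and integrin list, SPARC was the 1 lower gene among 7 compared and 0 were higher, beside 3.78% of all genes lower and 3.8% higher. With rows summed per gene, 3 of 11 were lower and 1 higher. By leading row the list had the laminin gene LanB1 at -0.71 and the adhesion adaptor genes Ilk at 0.32 and parvin at 0.56.

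Among the 10 lowest genes, 4 had no read in siBrm on the row used. The leading row of atilla, a GPI-anchored Ly6 protein gene known as a lamellocyte marker, had 0 reads in siBrm and 119 in siEGFP. It was 17.1-fold lower with siBrm set to a floor of 3 reads, and its interval reached up to -2.75. Cpr67Fb, a cuticle protein gene, had 0 reads in siBrm and 67 in siEGFP (9.62-fold lower with the same floor, interval up to -1.89). CG34263 had 0 and 24 reads in the same order (3.45-fold, interval up to -0.26), and the U1 snRNA copy snRNA:U1:95Cc 0 and 21 (3.02-fold, interval up to -0.03). The intervals of CG34263 and snRNA:U1:95Cc thus ended well within 2-fold of the median row. All 4 overlap another annotated gene. The others were lncRNA:CR45722 (2.41 RPKM in siBrm and 33.6 in siEGFP, -3.01), CG11899 (1.05 and 19.4 in the same order, -2.99) and CG43125 (1.06 and 13.3, -2.47), of which CG11899 overlaps another gene.

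Abundant RNAs were rarely called. Of 216 genes with a mean of at least 200 RPKM, 5 were higher and 2 lower (2.31% and 0.926%), against 5.15% and 5.77% of the 1300 genes between 5 and 10 RPKM. The genes in this paragraph were chosen after their values were seen. Arc1 (2R, 14357927 to 14360297), a gene descended from a retrotransposon Gag whose protein forms capsids that carry its own mRNA, had 10579 RPKM in siBrm, 2773 in siPiwi, 3120.0 in siMael and 3262 in siEGFP. Its ratio was 2.03 (interval 2.01 to 2.05), and it took 2.51% of all reads in siBrm and 0.773% in siEGFP. The noncoding lncRNA:CR43264 had 495 RPKM in siBrm, 323 in siPiwi, 109.6 in siMael and 108 in siEGFP (2.52), so siPiwi was also high. HmgD, an HMG-box protein that binds linker DNA of nucleosomes, had 149.8 RPKM in siBrm and 482 in siEGFP (-1.35). His3.3B, which encodes the replacement histone H3.3, had 100.2 in siBrm and 265 in siEGFP (-1.07). The muscle actin gene Act57B had 65.3 RPKM in siBrm, 105 in siPiwi, 131 in siMael and 247 in siEGFP (-1.57), so that all 3 knockdowns lay under siEGFP.

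Some higher genes lay next to one another. Of 146 higher genes with a position, 26 (17.8%) had another higher gene within 10000 bases that they did not overlap, and 6 (4.11%) had a lower one. Of 152 lower genes, 14 (9.21%) had another lower gene that near and 7 (4.61%) a higher one. Among 3737 genes called neither way, 6.98% had a higher and 7.12% a lower gene that near. This description was chosen after the values were seen and was not tested. The Ly6 family neighbours bero and CG9338 on 2L, 4201 bases apart, had 761 and 669 RPKM in siBrm and 341 and 307 RPKM in siEGFP (1.49 and 1.45). On 2R, 2547 bases from Gbp1, CG43103 had 87.8 RPKM in siBrm and 28.4 in siEGFP (1.93). CG34445 lay 647 bases from CG30195 (17.2 in siBrm and 8.13 in siEGFP, 1.32). Among lower genes, the SWI/SNF subunit gene Bap111 and His3.3B lay 547 bases apart on X, and Klp61F and Psf1 1076 bases apart on 3L.

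Transposons were lower in siBrm mainly within the gypsy superfamily. Of the 173 transposon rows, 60 were at 0 in both libraries, 82 were under the floor and 31 were compared, 2 of them named for other species. Of these 31, 2 were higher (6.45%) and 6 lower (19.4%) relative to the median row, with 14 below it and 17 above. On the values as given, 1 was higher (3.23%) and 11 lower (35.5%). A transposon row counts all copies of a family and has no single position, and reads of related families may be split between rows. Elements known only by a number are written with the prefix Dm.

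The most reduced element was blood, an LTR retrotransposon, with 41.9 RPKM in siBrm, 1043 in siPiwi, 495 in siMael and 250.5 in siEGFP. It rested on 1512 reads in siBrm and 16673 in siEGFP, and siBrm was the lowest of the 4 libraries. The element gypsy, which carries an envelope gene and is active in follicle cells, had 70.8 RPKM in siBrm, 1172 in siPiwi, 602 in siMael and 330.2 in siEGFP. Their log2 ratios to siEGFP were -2.22 (interval -2.36 to -2.14) and -1.87 (interval -1.98 to -1.81). Stalker2 (5.44 RPKM in siBrm and 23.6 in siEGFP, -1.60), mdg1 (4.84 and 16.01 in the same order, -1.21) and the element 17.6 (4.75 and 13.5, -1.01) were lower as well. So was a row named for the Drosophila pseudoobscura element mini-me (3.65 in siBrm and 15.6 in siEGFP, -1.50). The element 17.6 lay just past the threshold, with an interval from -1.53 to -0.85. The siPiwi and siMael comparisons share the siEGFP library with this one.

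Of the 15 gypsy superfamily elements compared, 5 were lower and 0 higher, with a median of -0.80, against 0.10 over all 31 transposon rows. Dm297 (33.1 RPKM in siBrm and 81.1 in siEGFP, -0.94), springer (1742 and 4016 in the same order, -0.87) and Transpac (10.7 and 24.6, -0.80) lay near but not past the threshold. These 3, 3S18 and Doc3-element passed 2-fold on the values as given. HMS-Beagle (-0.11), gypsy12 (0.12), mdg3 (0.21), invader3 (0.31), Quasimodo (0.48), invader4 (0.62) and invader1 (0.87) did not pass it in either direction. Quasimodo had 44.9 RPKM in siBrm, 918 in siPiwi, 349 in siMael and 40.5 in siEGFP, so that its siBrm and siEGFP values lay close together while mdg1, at 513 RPKM in siPiwi and 404 in siMael, was lower in siBrm than in siEGFP. Over the 28 gypsy superfamily elements of at least 1 RPKM the median was -0.37. The superfamily held 1.63% of all reads in siBrm and 3.77% in siEGFP, most of them from springer.

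Outside the gypsy superfamily the values lay mostly above the median row, a direction that rests on the shift to that row. On the values as given more of them lay below 0 than above it. Dm1731 (-0.27), Juan (-0.23), F-element (-0.21) and pogo (-0.15) were then below 0. The most abundant element, copia, had 35243 RPKM in siBrm, 12904 in siPiwi, 12253 in siMael and 15484 in siEGFP. Its ratio was 1.52 (interval 1.51 to 1.52), and it took 18.1% of the siBrm reads and 7.96% of the siEGFP reads. The foldback element FB had 36.6 RPKM in siBrm and 22.1 in siEGFP, a ratio of 1.03 with an interval from 0.65 to 1.46, and did not pass 2-fold on the values as given. The other DNA transposons, pogo (0.18), hopper (0.35) and mariner2 (0.74), were not called. The 5 LINE elements lay between -0.67 (Doc3-element) and 0.60 (Doc2-element), with Juan at 0.10, F-element at 0.12 and Doc at 0.48. Among BEL-Pao elements, 3S18 (-0.99) and diver (-0.63) lay below and roo (0.62) above, while the copia-like Dm1731 stood at 0.06. A row named for a Drosophila yakuba TART telomeric element stood at -0.59.

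**Figure D2:**
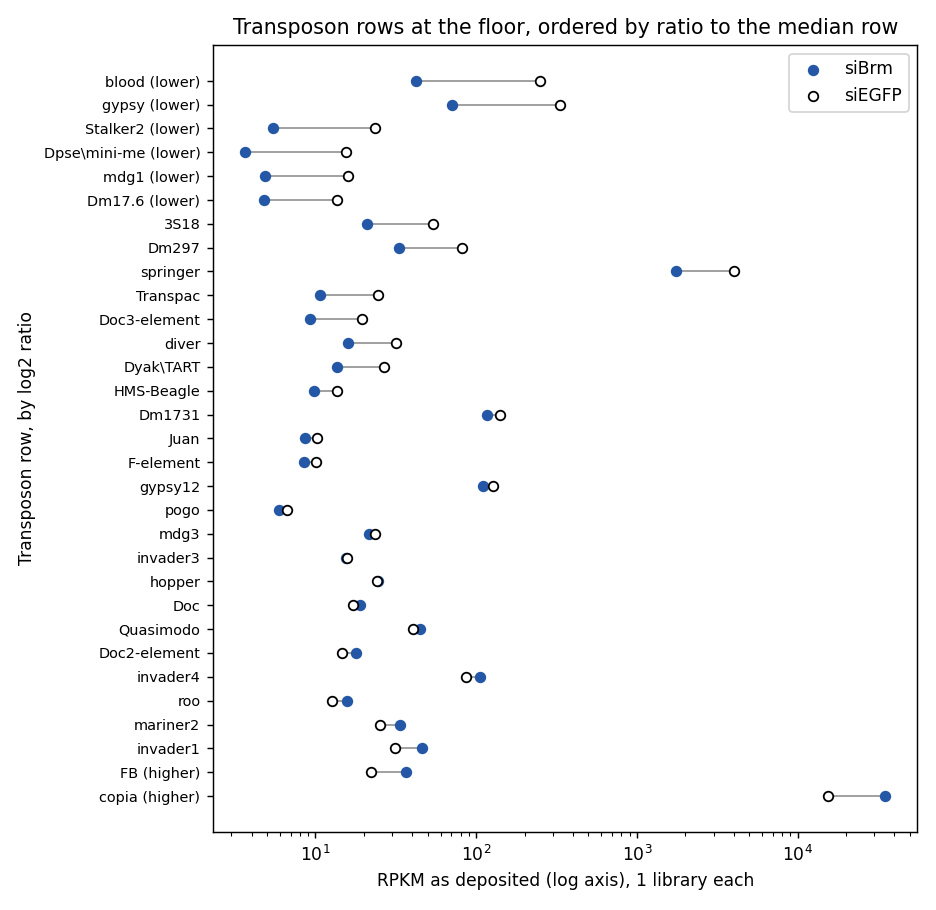
RPKM of the 31 compared transposon rows (horizontal, log axis) in siBrm (filled) and siEGFP (open), 1 library each, ordered by log2 ratio relative to the median row, with the called rows marked. The filled points of blood and gypsy lie well left of the open ones, those of springer less so, and those of copia to the right at 35243 RPKM.

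Many genes of cell division were lower in siBrm, and most others of their lists lay below the median row without passing 2-fold. These lists, and all those that follow, were chosen with earlier results of these data known, and their counts are set beside the 3.8% of genes called higher and 3.78% called lower. In the DNA replication list, 0 of 38 compared genes were higher and 12 lower, and 37 lay below the median row, with a list median of -0.74 against 0.02 over all genes. Ribonucleotide reductase makes the deoxynucleotides for replication, and its small subunit gene RnrS had 11.999 RPKM in siBrm and 46.6 in siEGFP (-1.54), its large subunit gene RnrL 11.96 and 36.5 in the same order (-1.20). Of the origin factors, Orc2, of the origin recognition complex, had 3.71 RPKM in siBrm and 14.2 in siEGFP (-1.36), and dup, the fly Cdt1, had 2.68 and 10.99 in the same order (-1.38). Among genes of the replicative helicase, dpa (the fly Mcm4, -1.54), Mcm3 (-1.26), Mcm7 (-1.22) and the GINS subunit Psf1 (-1.04) were lower. So were the ligase DNAlig1 (-1.13), the clamp loader subunit RfC38 (-1.01) and the histone chaperones asf1 (-1.48) and Caf1-180 (-1.01). The member furthest above the median row was Psf3, another GINS subunit, at 0.29.

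In the mitosis list, 0 of 27 compared genes were higher and 7 lower, with a median of -0.72. The cytokinesis genes tum, a GTPase activator of centralspindlin, and pav, its kinesin, had 4.02 and 4.49 RPKM in siBrm and 18.5 and 15.7 in siEGFP (-1.63 and -1.27). The mitotic kinases aurA (-1.29) and aurB (-1.12), the condensin subunit Cap-D2 (-1.25), the spindle kinesin Klp61F (-1.23) and cid, the centromeric histone H3 variant (-1.17), were lower too. The cohesin subunit vtd stood at 0.41 and the checkpoint gene mad2 at 0.01. Of 12 cell cycle regulators, 0 were higher and 3 lower, namely fzy, the fly Cdc20 (-1.05), Skp2 (-1.04) and Cdk2 (-1.02), with a median of -0.64. On the values as given, the medians of the replication, mitosis and regulator lists were -1.07, -1.05 and -0.97, with 22 of 38, 14 of 27 and 5 of 12 genes lower.

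Replication-dependent histone genes, which are transcribed in S phase from near-identical tandem copies, had values in the other direction. None of their 919 rows, from 111 symbols, reached the floor singly. How reads of identical copies were assigned is not given, and they may be split between rows or counted in several. Reads counted in several rows would inflate the sums and make the intervals too narrow. Summed over all copies these genes had 530 RPKM in siBrm, 208 in siPiwi, 160 in siMael and 204 in siEGFP. The sums rest on 1493 reads in siBrm and 1050 in siEGFP. The log2 ratio of the sums was 1.70 (interval 1.56 to 1.89), and siBrm was the highest of the 4 libraries. By class the ratios were 1.97 for His1, 2.15 for His2A, 1.51 for His2B, 1.06 for His3 and 1.74 for His4. His2A had 112 RPKM in siBrm and 31.0 in siEGFP, and His3 46.2 in siBrm and 27.6 in siEGFP. These RNAs are short and mostly lack a poly(A) tail, and both libraries were labelled total RNA.

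**Figure D3:**
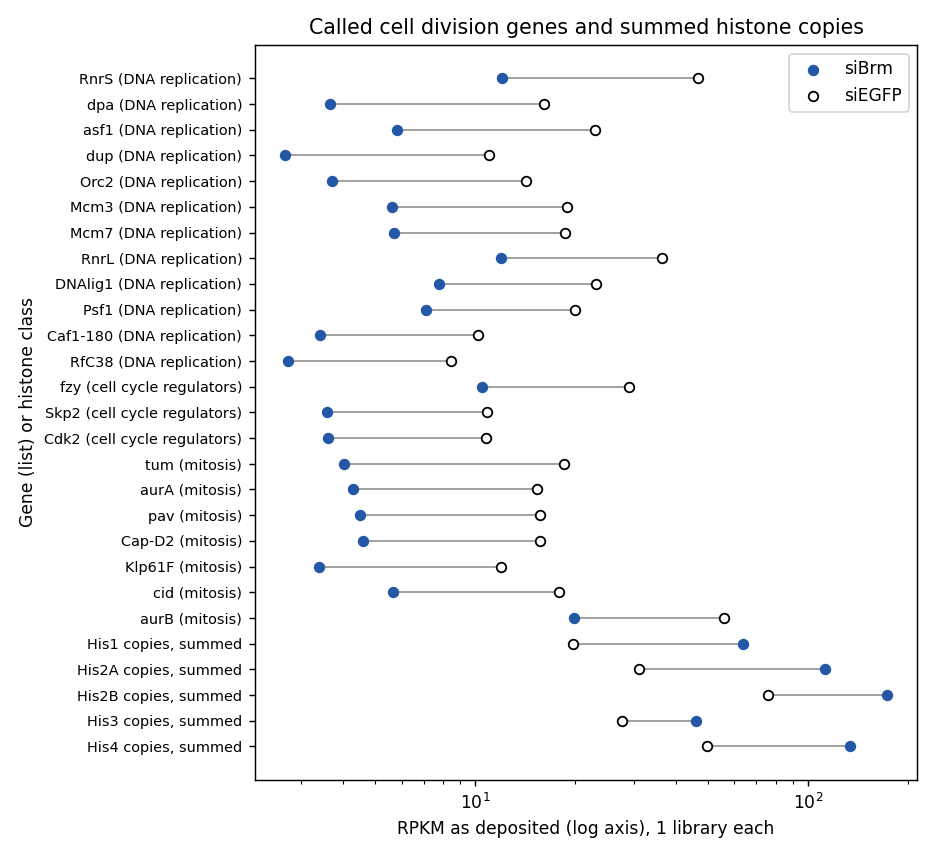
RPKM (horizontal, log axis) in siBrm (filled) and siEGFP (open), 1 library each, of the 22 called genes of the DNA replication, cell cycle regulator and mitosis lists and of the replication-dependent histone copies summed by class. In all 22 genes the filled point lies left of the open one, and in the 5 histone classes right of it.

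Genes of the SWI/SNF complexes themselves had low values besides brm, and all subunits listed are given here, which goes beyond the rule for naming genes. Of 7 compared, 1 was lower, Bap111, an HMG-domain subunit (4.62 RPKM in siBrm and 15.4 in siEGFP, -1.21), 0 were higher and all 7 lay below the median row, with a median of -0.91. The PBAP subunits polybromo (-0.996), Bap170 (-0.54) and e(y)3 (-0.59), the actin-related Bap55 (-0.99), and Bap60 (-0.91) and Snr1 (-0.27) of the common core were not called. The scaffold gene mor, summed over its 2 rows, had 4.71 RPKM in siBrm and 13.2 in siEGFP (-0.98), while osa had 5.11 in siBrm, 6.85 in siPiwi, 4.73 in siMael and 4.57 in siEGFP and stayed under the floor. Of these 7, 4 were lower on the values as given. In other chromatin remodellers 0 of 10 compared genes were called in either direction, with a median of -0.14. There 2 of 10 were lower on the values as given, and 2 of 13 with rows summed per gene. Of 17 nucleoporin genes, which are no part of these complexes, 0 were called either way while 16 lay below the median row, with a median of -0.49 and Nup214 lowest at -0.91. In the Mediator list 0 of 19 were higher and 1 lower, the kinase module subunit kto (3.70 RPKM in siBrm and 14.2 in siEGFP, -1.36), and 5 of 19 were lower on the values as given.

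Factors of the piRNA pathway showed little beyond piwi. Of 10 compared genes of nuclear silencing, 0 were higher and 1 lower, piwi itself, whose leading row had 12.8 RPKM in siBrm and 44.0 in siEGFP (-1.38). The histone methyltransferase gene egg stood at -0.60, Nxt1 at 0.49 and mael at 0.71. Of 9 genes of piRNA biogenesis, 0 were called either way, with the nuclease gene zuc at -0.84 and Gasz at 0.39.

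Metabolic genes differed by pathway. In glycolysis 0 of 12 compared genes were higher and 3 lower, with a median of -0.78. Gapdh2, a glyceraldehyde phosphate dehydrogenase, had 18.2 RPKM in siBrm and 58.6 in siEGFP (-1.30), while its paralog Gapdh1 had 47.9 in siBrm and 50.7 in siEGFP (0.25). Without centring, 7 of the 12 were lower. Lactate dehydrogenase, Ldh, had 18.6 RPKM in siBrm and 50.4 in siEGFP (-1.06), and Tpi, triose phosphate isomerase, lay at the threshold (-1.002). Summed over all of their rows, Ldh (-0.95) and Tpi (-0.71) did not pass 2-fold. Nuclear genes of oxidative phosphorylation were called in 0 of 65 cases, with a median of -0.03, and proteasome subunits in 0 of 33, with a median of -0.23.

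Genes of the translation machinery lay slightly above the median row, by less than the threshold. Of 81 cytoplasmic ribosomal protein genes, 1 was higher and 0 lower, and 78 lay above the median row with a list median of 0.34. On the values as given this median was 0.01 and 45 lay above 0, so the direction rests on the shift to the median row. The higher one was RpS10a, a little expressed paralog (11.6 RPKM in siBrm and 4.42 in siEGFP, 1.54). RpS19b, another paralog, stood at -0.73 by its leading row. Summed over its 2 rows RpS19b had 18.6 RPKM in siBrm and 53.1 in siEGFP and was lower (-1.13). The medians of 19 aminoacyl-tRNA synthetases (0.29), 38 translation factors (0.22) and 15 vacuolar ATPase subunits (0.24) also lay above the median row, but below 0 on the values as given (-0.04, -0.11 and -0.10). In those lists 0 genes were higher and 1 was lower, the initiation factor gene eIF4H1 (-1.30), which did not pass 2-fold when its rows were summed (-0.96). The 73 mitochondrial ribosomal protein genes, 0 of them called, had a median of 0.04, and -0.29 on the values as given.

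Feature length moved with the ratio. The median was 0.13 for genes whose feature was under 500 bases, 0.12 from 500 to 1000, 0.04 from 1000 to 2000, -0.09 from 2000 to 4000 and -0.18 from 4000 bases. The share of higher genes was 13.1% in the shortest class and 2.23% in the longest. The share of lower genes was 7.28% in the shortest class, 5.03% in the longest and between 3.08% and 3.88% in the others. With each length class centred on its own median, the list medians were -0.75 for DNA replication, -0.60 for mitosis, -0.81 for SWI/SNF subunits, -0.66 for glycolysis, -0.42 for nucleoporins and 0.22 for cytoplasmic ribosomal proteins.

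**Figure D4:**
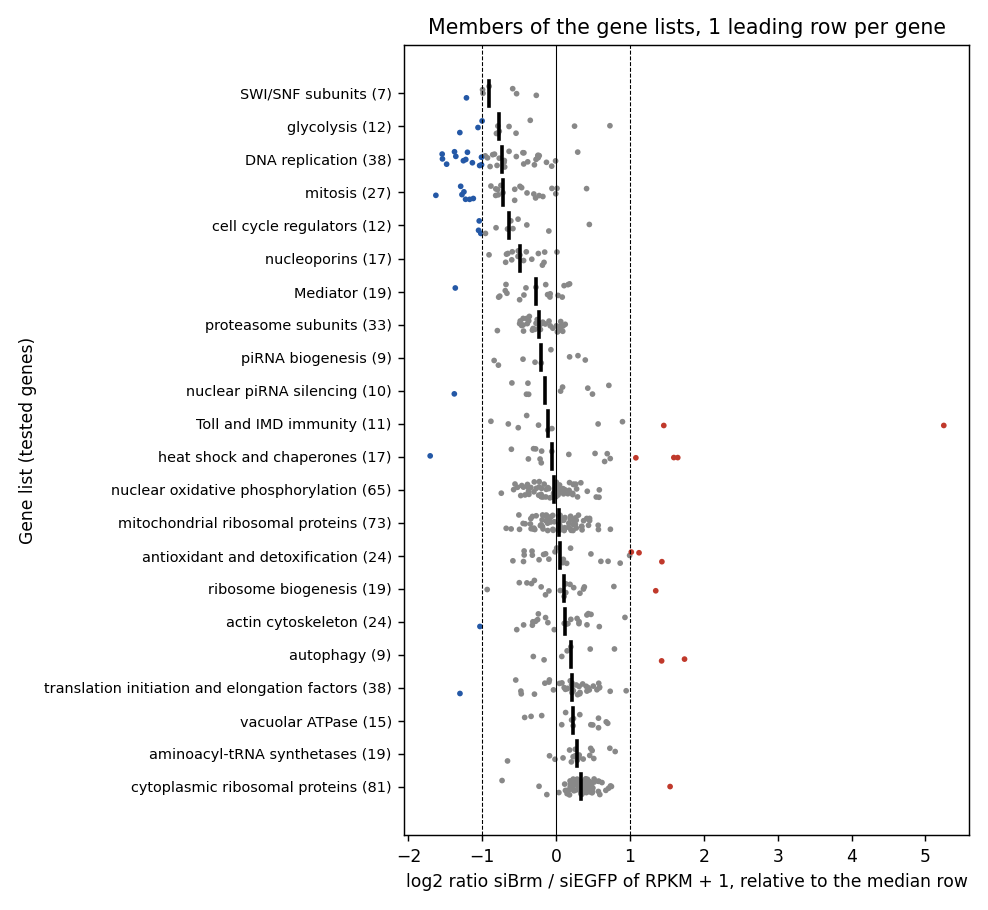
Log2 ratios of siBrm over siEGFP relative to the median row (horizontal) for the compared members of 22 gene lists, 1 point per gene with its leading row, ordered by list median (black bar), with the number of genes after each name. Dashed lines mark 2-fold, with higher genes in red and lower genes in blue. The lists of SWI/SNF subunits, glycolysis and cell division have their medians between -0.91 and -0.64, and the cytoplasmic ribosomal proteins form a tight group with a median of 0.34.

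Stress and immune genes included calls in both directions. Of 17 heat shock and chaperone genes, 3 were higher and 1 lower, with a median of -0.06. The inducible chaperone genes Hsp70Aa (8.83 RPKM in siBrm and 3.09 in siEGFP, 1.59) and Hsp70Ab (12.5 and 4.41 in the same order, 1.65) are nearly the same in sequence, so reads may be split between them. CG4456 was higher (1.08, but 0.75 on the values as given), and Hsp67Ba was lower (3.08 in siBrm and 15.7 in siEGFP, -1.70). Of 24 antioxidant and detoxification genes, 3 were higher and 0 lower, all glutathione S-transferases, namely GstD1 (381 RPKM in siBrm and 219.5 in siEGFP, 1.12), GstO3 (1.43) and GstE9 (1.02). On the values as given, GstO3 alone of these passed 2-fold, with GstD1 at 0.79 and GstE9 at 0.69. With rows summed per gene, 5 of 26 were higher. Of 11 Toll and IMD genes, 2 were higher and 0 lower, PGRP-SA and the death-domain adaptor Fadd of the IMD pathway (19.8 in siBrm and 8.52 in siEGFP, 1.46). The median of that list was -0.11. The unfolded protein response list had 0 of 12 called.

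Among signalling genes, the JAK/STAT inhibitor Socs44A was higher (27.0 RPKM in siBrm and 15.5 in siEGFP, 1.09) among 3 compared genes of its pathway, with 0 lower. All 3 lay above the median row, with a median of 0.73. In the Notch pathway 2 of 6 compared genes were higher and 0 lower, the gamma-secretase subunit Nct (1.16) and the target gene E(spl)mbeta-HLH (1.01), and all 6 lay above the median row, with a median of 0.29. Socs44A (0.76), Nct (0.83) and E(spl)mbeta-HLH (0.68) did not pass 2-fold on the values as given, and 3 of the 6 Notch genes lay below 0. The growth regulator Myc had 8.43 RPKM in siBrm and 3.65 in siEGFP (1.35). It was the 1 higher of 5 Hippo pathway genes compared, with 0 lower and a median of 0.33. The Hedgehog receptor gene ptc, also a follicle cell gene, was lower (3.35 in siBrm and 10.8 in siEGFP, -1.11), as was the Polycomb group gene esc (-1.14). Of 3 Hedgehog genes compared, ptc was the 1 lower, with 0 higher and 2 above the median row. Of 4 Polycomb and Trithorax group genes, esc was the 1 lower, with 0 higher, 3 above the median row and a median of 0.26. Cyp18a1, the enzyme that inactivates ecdysone, was higher (28.6 RPKM in siBrm and 15.3 in siEGFP, 1.19, but 0.86 on the values as given). It was the 1 higher of 9 cytochrome P450 genes compared, with 0 lower, 8 below the median row and a median of -0.66. Without centring, 4 of these 9 were lower and 0 higher. Of 4 ecdysone response genes compared, Cyp18a1 was the 1 higher and 2 were lower, with a median of -0.97. With rows summed per gene, 1 of 8 was higher and 0 lower. ImpL2, a secreted antagonist of insulin signalling, was lower by its leading row (-1.14) but not when its 4 rows were summed (-0.90). In the EGF receptor pathway 0 of 6 were called, with a median of 0.00.

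Of the genes of cell death, 2 of 7 compared were lower and 0 higher. Buffy, a Bcl-2 family gene, had 0.99 RPKM in siBrm and 11.7 in siEGFP (-2.34, interval -5.86 to -1.48), and the effector caspase gene Drice had 16.5 in siBrm and 44.4 in siEGFP (-1.04). Of 9 autophagy genes, 2 were higher and 0 lower, the ubiquitin-like Atg12 (43.8 RPKM in siBrm and 19.9 in siEGFP, 1.43) and the protease gene Atg4a (24.9 in siBrm and 8.74 in siEGFP, 1.74). Nrt, a neurotactin adhesion protein gene (-1.02), and atilla were the 2 lower genes of 5 in the adhesion list, with 0 higher, while summed rows gave 4 lower and 1 higher of 9. The gene kel, a ring canal protein gene (-1.03), was the 1 lower of 24 actin cytoskeleton genes. When rows were summed, kel did not pass 2-fold (-0.97).

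Of the cuticle protein list 5 genes were compared, and 2 were higher and 3 lower. Pcp had 11.45 RPKM in siBrm and 1.24 in siEGFP (2.80, from 40 reads in siBrm and 8 in siEGFP), and Cpr64Ac had 9.70 in siBrm and 3.25 in siEGFP (1.66). Besides Cpr67Fb, the lower ones were obst-H (3.59 RPKM in siBrm and 13.3 in siEGFP, -1.30) and Lcp9, with 5 reads in siBrm and 32 in siEGFP (-1.15). Of the glia list 2 genes were compared, and 1 was higher and 1 lower. The lower one was wrapper, given above (-3.92). The higher one was nrv2, a subunit gene of the sodium pump, by its leading row (7.06 RPKM in siBrm and 3.43 in siEGFP, 1.19). It did not pass 2-fold on the values as given (0.86) or when its 6 rows were summed (0.87).

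Of 77 long noncoding and antisense RNAs compared, 11 were higher (14.3%) and 7 lower (9.09%). Without centring 5 were higher and 15 lower, centring by feature length gave 8 higher and 7 lower, and summed rows gave 9 higher and 8 lower of 82. Among the 32 antisense RNAs of the list 6 were higher and 1 lower, and among the 45 others 5 were higher and 6 lower. Besides those already given, the higher RNAs were lncRNA:CR45564 (2.75, 22 reads in siBrm and 4 in siEGFP), lncRNA:CR43496 (1.56) and asRNA:CR45214 (1.44). Those that passed 2-fold only relative to the median row were lncRNA:CR42861 (1.22), asRNA:CR43957 (1.13), asRNA:CR44431 (1.13), asRNA:CR45028 (1.09), asRNA:CR44704 (1.05) and asRNA:CR31144 (1.04). Of these, lncRNA:CR42861 (0.71) and asRNA:CR43957 (0.69) did not pass when their rows were summed. The other lower ones were lncRNA:CR45287 (-1.78), lncRNA:CR44299 (-1.74), lncRNA:CR44281 (-1.47), lncRNA:CR43887 (-1.22), lncRNA:CR44785 (-1.18) and asRNA:CR45518 (-1.11). Many overlap protein-coding genes, and whether reads were counted by strand is not given in the sources used here. Of 31 small nucleolar and nuclear RNAs, 5 were higher and 7 lower, mostly on few reads. The 7SK RNA copy snRNA:7SKa had 66 reads in siBrm and 32 in siEGFP (2.14), and the minor spliceosome RNA snRNA:U12 had 18 in siBrm and 153 in siEGFP (-1.80). The other higher ones were snRNA:U4:39B (2.23), snoRNA:Psi18S-176 (2.21), snoRNA:Psi28S-3342 (1.87) and snoRNA:Psi18S-920 (1.12), the last of which did not pass on the values as given (0.79). Each of these 4 rests on at most 12 reads in siBrm. The other lower ones besides snRNA:U1:95Cc were snRNA:U1:21D (-1.66), snoRNA:Psi28S-1192a (-1.65), snoRNA:Psi18S-531 (-1.64), snRNA:U2:14B (-1.29) and snoRNA:Psi28S-1175b (-1.09). Copies of U1, U2 and U4 share sequence, so a call on 1 copy is uncertain. Their features are short, with a median of 164 bases.

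Occupancy of the SWI/SNF subunits in control cells was compared with the RNA calls, which did not use it. In control OSCs, the median log2 of Brm ChIP over input, relative to the median row, was 0.45 at 115 higher genes. It was 0.35 at 121 lower genes and 0.33 at 2793 genes called neither way. The ranges between quartiles overlapped widely, from -0.07 to 0.91 at higher genes, from 0.05 to 0.82 at lower genes and from -0.08 to 0.78 at the rest. By level, the Brm medians at higher, lower and other genes were 0.41, 0.33 and 0.24 at a mean of 5 to 20 RPKM. At 20 RPKM and over they were 0.72, 0.72 and 0.47, and the quartile ranges overlapped at both levels. Over all levels, Polybromo had medians of 0.16, 0.26 and 0.16 at higher, lower and other genes. Osa had 0.09, 0.30 and -0.07 in the same order over its own input. These values rest on few reads, with a median of 16 Brm ChIP reads and 7 input reads at higher genes. They cover the transcribed feature and not the promoter. Of the 6 lower transposons, gypsy stood at 0.65 for Brm and the other 5 between -0.37 and -0.13, while springer was at 1.10 and copia at -0.11. For Polybromo the 6 lay between -0.22 and 0.03. For Osa over its own input the 6 stood higher, with blood at 2.45, gypsy at 1.29, Stalker2 at 3.35, the mini-me row at 3.80, mdg1 at 1.91 and the element 17.6 at 3.42. All 31 compared transposon rows stood above 0 for Osa, the least of them mariner2 at 0.27. Elements that were not lower also stood high, with Quasimodo at 3.13, springer at 2.52 and the higher element copia at 2.28.

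**Figure D5:**
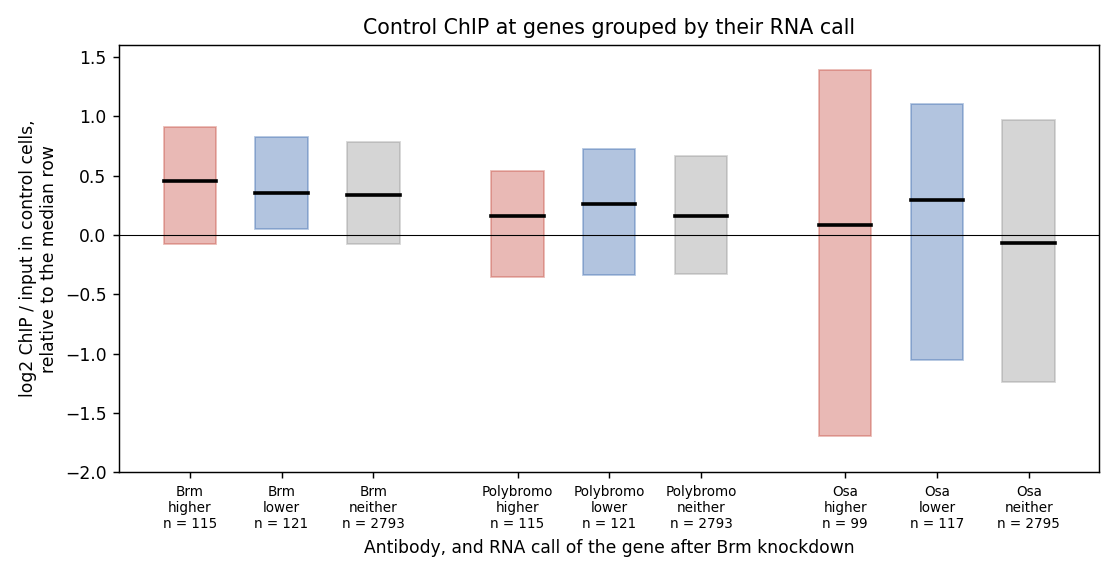
Log2 of ChIP over its own input in control OSCs, relative to the median row (vertical), for Brm, Polybromo and Osa at genes called higher, lower or neither after brm knockdown. Boxes span the quartiles and black bars the medians, and in all 3 antibodies the boxes of the 3 classes overlap.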

How the data were processed

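The values used are RPKM that the authors computed and deposited, reads scaled to feature length and library size, in 1 table for RNA and separate tables for ChIP. The submitters' processing notes name Bowtie2 2.2.4 and the build dm6. How reads were counted, by strand or not, and on repeated sequence is not given in the sources used here. Of the RNA values, 4 columns matched no sample and were left out.

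From these values, each library's total was recovered as the number that turns RPKM into whole reads (100% of values within 0.01 of a whole read). For each row the shortest length between 20 and 80000 bases that did so was taken, which can understate its reads. Transcript identifiers were matched to the RefSeq table of the Release 6 assembly (34923 matched, 406 did not), whose 1-based gene positions are given. With 1 library a side the rule is one of size: at least 2-fold on the log2 scale of RPKM + 1 relative to the median row, at a mean of at least 5 RPKM. A gene is its row with the highest mean, and sums over its rows are an alternative. Adding 1 understates changes of weakly expressed genes. Intervals are 95% Clopper-Pearson intervals of the fragment ratio, with 2 reads per fragment assumed, and floors are 3 reads.

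The members and lists were chosen with earlier results of these data known. Named are brm, the 10 highest and 10 lowest genes, every compared transposon, up to 2 genes at each end of a list with at least 5 compared members, and any called member. Other genes are said to be chosen after their values were seen, as were the summed histone copies, the 10000-base neighbours and the centring by length. ChIP was divided by its input on the log2 scale after the 5th percentile of input values was added to each, at rows whose input is at least the median. The rule was run on simulated fragments with known changes, drawn with counting error only and with all reads in pairs. That simulation cannot show how the rule behaves where these conditions do not hold. Python 3.11.15, numpy 2.4.6, pandas 2.3.3 and scipy 1.17.1 were used.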

Additional observations from a re-analysis of the deposited data

How the results depend on the processing

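No paired analysis was possible because each group held 1 library, and for the same reason no library could be left out. The counts of higher and lower transcript rows, 217 and 261, and of transposon rows, 2 and 6, stayed within 1.5 times with a trimmed mean as the centre, at least 50 reads, a pseudocount of 0.1 and scaling without transposons. With values as given they were 100 and 683, and 1 and 11. With a floor of 1 RPKM the transcript counts were 604 and 586, and with no floor 831 and 930, where 11 transposons were lower. With a pseudocount of 5 they were 112 and 103, and 1 and 3 transposons. At 1.5-fold they were 747 and 876, and 7 and 13, and at 3-fold 61 and 69, and 0 and 3. With 1 row per gene 154 were lower, and 155, within 1.5 times, were higher. With centring by feature length, an alternative chosen after seeing the data, 140 genes were higher and 161 lower, of which 130 and 143 were called before. Summing rows per gene gave 196 and 206. These settings change by construction which rows are compared or how far a row must lie from the centre, and no other cause was tested. Of 252 named features, 63 moved without centring and 49 with a pseudocount of 5, and 0 of them changed direction while called. The siBrm library was the least deep, and 3 reads in it make 0.617 RPKM on a feature of 1 kilobase, against 0.334 in siEGFP.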
